A study of Saccharomyces cerevisiae with 4 samples.

Results

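The 9 genes described here encode the copper uptake, storage and delivery proteins of *Saccharomyces cerevisiae* and the transcription factors that control them: *CTR1*, *CTR2*, *CTR3*, *MAC1*, *CUP2*, *CRS5*, *CUP1-1*, *ATX1* and *COX17*. They were chosen by gene symbol, and each of the 9 was matched to 1 probe set, out of 5449 genes measured. All cells were haploid yeast of the strain called FM391, and wild type cells were compared with sod1Δ cells, which lack the gene of the copper-zinc superoxide dismutase Sod1. Each strain was either left untreated or given 0.4 mM H2O2 for 20 min, while growing at 30 °C to an OD600 of about 0.4, early in log phase, in a synthetic complete medium lacking leucine. The labels name no copper salt or copper chelator, and neither how *SOD1* was deleted nor how many cultures were grown.

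There was 1 array for each strain and condition, 4 in all, so no difference has a replicate check and none was tested. Levels are log2 signals of a probe set, a difference of 1 is 2-fold, and a gene was called higher or lower past 2-fold. Levels are compared between arrays for the same gene and not between genes.

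Copper is needed by a few enzymes, among them Sod1, cytochrome c oxidase and the iron-uptake oxidase Fet3, and free copper ions promote the formation of reactive oxygen species. Yeast therefore imports copper through dedicated transporters, hands it on to small chaperone proteins and binds any excess in metallothioneins, which are short cysteine-rich proteins. The factor Mac1 switches on uptake genes when copper is scarce, and the factor Cup2, also called Ace1, switches on metallothionein genes and *SOD1* when copper is abundant. Both *ATX1* and *CUP1* are known in yeast as genes that, when expressed strongly, relieve growth defects of cells without Sod1.

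*SOD1* followed the labels, at 14.21 without and 14.31 with H2O2 in wild type, against 2.40 without and 2.42 with it in sod1Δ. All 9 copper genes lay above the background floor of 2.31 on every array. The floor is the 95th percentile of 1746 probe sets for fission yeast genes, whose RNA was not in the samples. Of the 9 genes *CTR3* came nearest to it, 1.92 above the floor at its lowest, and *MAC1* next, 3.02 above. The deleted *SOD1* also lay above the floor in sod1Δ, by 0.086 at its lowest. A level just above the floor thus does not by itself show that a transcript was present. Bulk arrays give the relative signal of a transcript in the RNA of all cells and do not separate fewer expressing cells from less transcript per cell.

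As there were no replicates, only the spread between probe sets of the same gene could be measured. It was taken on 42 genes with 2 probe sets (41 in the wild type response and in the comparison of treated strains). Both probe sets were read on the same arrays, so this spread leaves out variation between cultures and arrays. Per probe set its SD on the log2 scale was 0.51 for the response to H2O2 in wild type and 0.59 for that in sod1Δ. For the difference of the strains it was 0.31 without H2O2 and 0.45 with it. The median absolute difference between the 2 probe sets of a gene was smaller. It was 0.24 and 0.37 for the responses in wild type and sod1Δ, and 0.15 and 0.13 for the strains without and with H2O2. Some pairs lay 2-fold or more apart, 8 of 41 and 8 of 42 for the responses. The 27 hybridization control probe sets, which detect added bacterial and phage transcripts, differed by a median of -0.72 for the wild type response and 0.11 for the sod1Δ response. Their median for sod1Δ minus wild type was -0.60 without H2O2 and 0.27 with it. By these medians the control signals were highest on the untreated wild type array. Their part in the differences below was not tested.

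**Figure D1:**
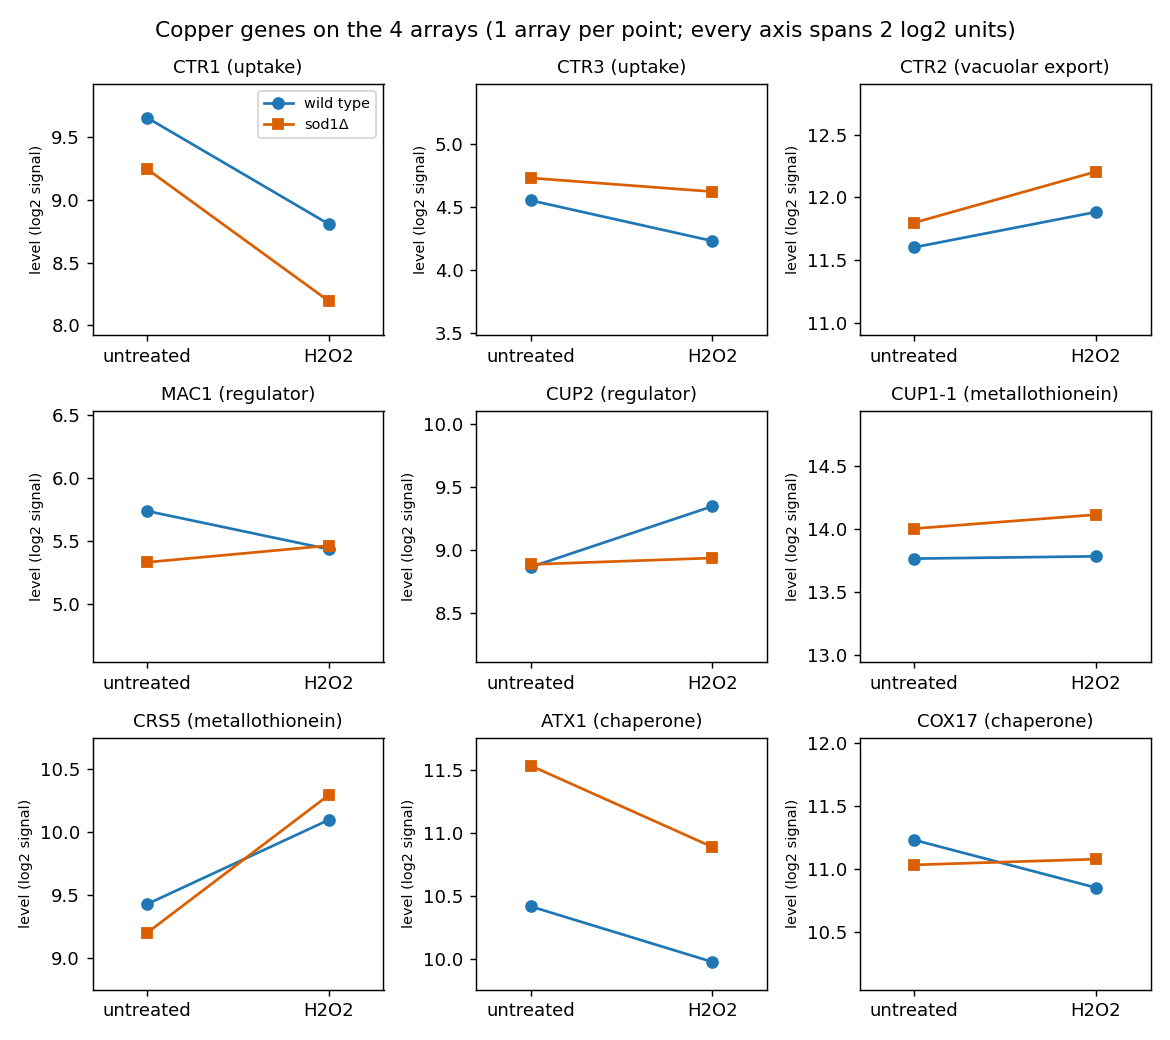
Level (log2 signal) of each of the 9 copper genes without and with H2O2 in wild type (circles) and sod1Δ (squares), with 1 array per point and lines joining the arrays of a strain. Every vertical axis spans 2 log2 units. *CTR1* and *ATX1* had lower points with H2O2 in both strains, *CRS5* had higher ones, and *ATX1* separated the strains most widely.

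Copper enters the cell through high-affinity transporters of the plasma membrane. *CTR1*, which encodes the main one, had a level of 9.65 without and 8.80 with H2O2 in wild type, against 9.24 without and 8.19 with it in sod1Δ. The order from high to low was untreated wild type, untreated sod1Δ, treated wild type and treated sod1Δ, so both untreated arrays lay above both treated arrays. The response to H2O2 was -0.85 in wild type, which left 55.6% of the untreated signal, and -1.05 in sod1Δ, which left 48.3%. The second value was past 2-fold, but only just: it was -0.99 after quantile normalization and -0.97 with 32 added to the linear signal. The difference of sod1Δ from wild type was -0.41 untreated and -0.61 with H2O2, both short of 2-fold.

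*CTR3*, which encodes a second high-affinity transporter and is silenced by a transposon insertion in many laboratory strains, had a dim signal throughout. It was at 4.56 without and 4.23 with H2O2 in wild type, against 4.73 without and 4.63 with it in sod1Δ. The 4 levels lay within 0.50 of each other, and no difference in *CTR3* reached 2-fold. The difference of treated sod1Δ from treated wild type, 0.39, became 1.05 after quantile normalization, so this dim gene's call depended on the scaling.

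*CTR2*, whose product releases copper from the vacuole, went the other way from *CTR1*. It was at 11.60 without and 11.88 with H2O2 in wild type, against 11.80 without and 12.21 with it in sod1Δ. Both treated arrays lay above both untreated arrays, although treated wild type exceeded untreated sod1Δ by little. The responses were 0.28 and 0.41, each smaller than the SD between probe sets given above and slightly larger than the median absolute difference.

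The genes of both regulators differed little between the arrays. *MAC1* was at 5.74 without and 5.43 with H2O2 in wild type, against 5.33 without and 5.46 with it in sod1Δ, a range of 0.41 at a dim signal. *CUP2* was at 8.87 without and 9.35 with H2O2 in wild type, against 8.89 without and 8.94 with it in sod1Δ. Its untreated levels were nearly equal and treated wild type stood above the other 3 arrays, which gave a response of 0.48 in wild type and 0.05 in sod1Δ. Arrays measure the transcript, and the activity of Mac1 and Cup2 depends on copper binding to the proteins, which was not measured.

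Both metallothionein genes are targets of Cup2, as is *SOD1*, whose response in wild type was 0.10. The *CUP1-1* probe set was bright, at 13.77 without and 13.79 with H2O2 in wild type, against 14.01 without and 14.12 with it in sod1Δ. Both sod1Δ arrays lay above both wild type arrays, by 0.24 untreated and 0.33 with H2O2, and the responses were 0.02 and 0.11. The highest value of any probe set on the 4 arrays was 15.10 and how far so bright a signal can still rise was not measured. The identical gene *CUP1-2* had no probe set of its own here, and the type of the *CUP1-1* probe set, marked as shared by several transcripts, means that its signal covers both.

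*CRS5*, the gene of the second metallothionein, was at 9.43 without and 10.10 with H2O2 in wild type, against 9.20 without and 10.30 with it in sod1Δ. Both treated arrays lay above both untreated arrays. The response was 0.67 in wild type, or 159% of the untreated signal, and 1.10 in sod1Δ, or 214%, and only the latter was past 2-fold. The strains differed by -0.23 untreated and 0.20 with H2O2. The RefSeq annotation of the reference strain lists *CRS5* as a pseudogene, so its transcript does not by itself show that a working protein was made in these cells.

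The copper chaperones carry the metal to its users. *ATX1* encodes the chaperone that delivers copper to the transporter Ccc2 for the secretory pathway, and it showed the widest range of the 9 genes, 1.56. It was at 10.42 without and 9.97 with H2O2 in wild type, against 11.53 without and 10.89 with it in sod1Δ. Both sod1Δ arrays lay above both wild type arrays, and within each strain the treated array was the lower. *ATX1* was 1.12 higher in sod1Δ without H2O2, or 217% of the wild type signal, which was past 2-fold, and 0.91 higher with H2O2, or 188%, which was not. Ranked from the highest, these differences were number 144 of 5344 genes and number 204 of 5341. The responses to H2O2 were -0.44 in wild type and -0.65 in sod1Δ.

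*COX17*, which encodes the chaperone that supplies copper to the assembly factors of cytochrome c oxidase in mitochondria, stayed within 0.38 over the 4 arrays. It was at 11.23 without and 10.85 with H2O2 in wild type, against 11.03 without and 11.08 with it in sod1Δ. The sod1Δ arrays lay between the wild type arrays.

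Counted over the 9 genes, few passed 2-fold in any comparison. With H2O2 in wild type 0 were higher and 0 lower, where 17.1% and 16.1% of the 5358 genes compared were. With H2O2 in sod1Δ 1 was higher, *CRS5*, and 1 lower, *CTR1*, where 14.6% and 15.8% of 5341 genes were. Between the untreated strains 1 was higher in sod1Δ, *ATX1*, and 0 lower, where 3.71% and 3.18% of 5344 genes were. Between the treated strains 0 were higher and 0 lower, where 3.07% and 6.33% of 5341 genes were. The difference of the responses, sod1Δ minus wild type, reached 2-fold for 0 genes upwards and 0 downwards, where 2.67% and 4.03% of 5365 genes did, and it ran from -0.43 for *CUP2* to 0.44 for *MAC1*. After quantile normalization its upper end was 0.74 for *CTR3* and 0.73 for *MAC1*, the dim genes of the set. The copper genes thus had no more calls in the response to H2O2 than the share of all genes, and the single call between the untreated strains is too few to read against 3.71%. The shares over all genes themselves depended on the scaling: between the treated strains 164 genes were higher and 338 lower as deposited, and 230 and 215 after quantile normalization. Between the untreated strains the counts were 198 and 170 as deposited, and 229 and 129 after quantile normalization.

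At 1.5-fold, a threshold added after the values had been seen, the wild type response had 1 copper gene higher, *CRS5*, and 1 lower, *CTR1*, where 25.9% and 26.2% of all genes compared were. The sod1Δ response had 1 higher, *CRS5*, and 2 lower, *CTR1* and *ATX1*, where 23.7% and 25.3% were. Between the strains 1 was higher without H2O2, *ATX1*, and 0 lower, where 8.61% and 10.2% were. With H2O2 1 was higher, again *ATX1*, and 1 lower, *CTR1*, where 9.02% and 15.1% were. The difference of the responses had 0 higher and 0 lower as deposited, where 7.18% and 11.5% were. After quantile normalization *CTR3* and *MAC1* passed 1.5-fold upwards, and the share of all genes doing so under that scaling was not counted.

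The medians of the 9 genes were all short of 2-fold. They were -0.30 for the wild type response, 0.05 for the sod1Δ response, and 0.02 and 0.23 for sod1Δ minus wild type without and with H2O2. The medians over all genes compared were -0.03, -0.03, -0.07 and -0.05 in the same order. For the responses, which were measured on separate pairs of arrays, 7 of the 9 copper genes had the same direction in both strains, 4 up and 3 down, beside 89.1% of 5334 genes compared in both. For the strain differences, also from separate pairs of arrays, 5 of the 9 had the same direction without and with H2O2, 4 up and 1 down, beside 73.6% of 5320 genes.

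**Figure D2:**
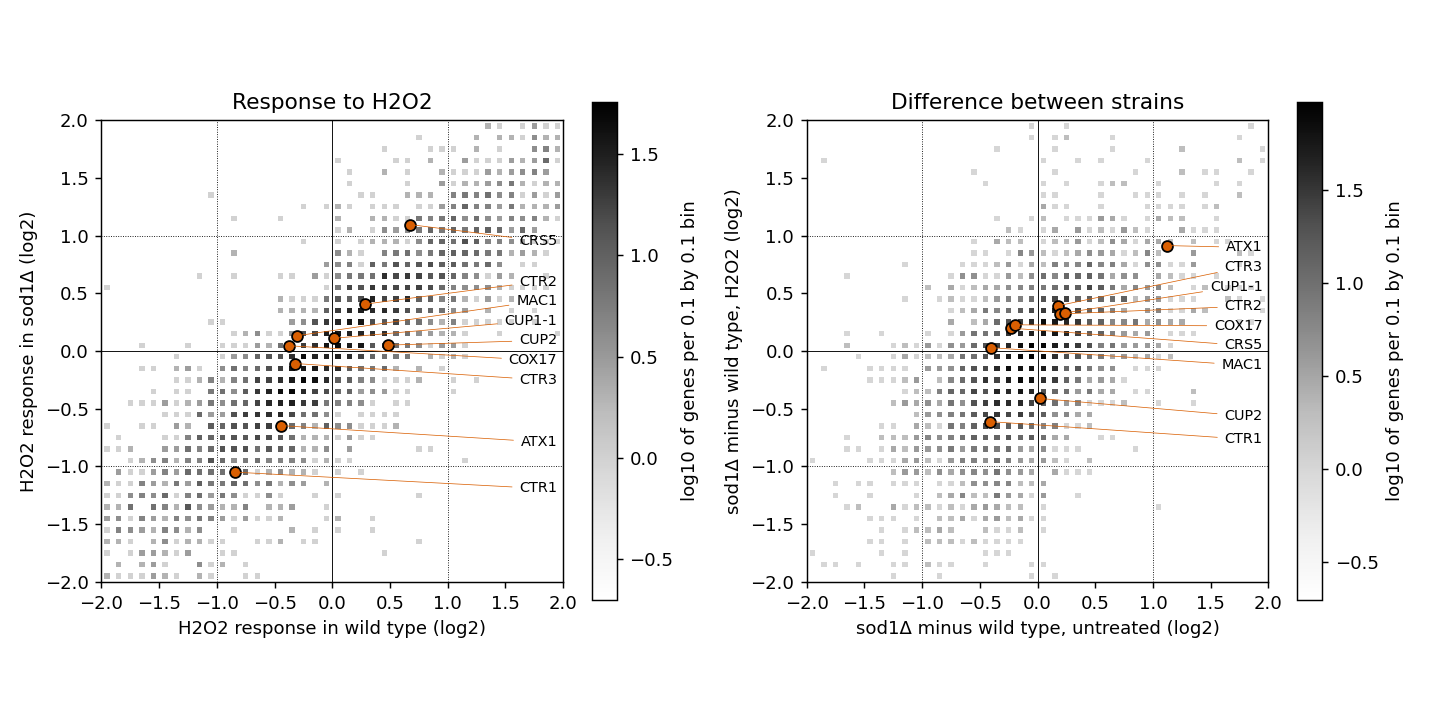
Left, response to H2O2 in wild type (horizontal) and sod1Δ (vertical), in log2. Right, difference of sod1Δ from wild type untreated (horizontal) and with H2O2 (vertical), in log2. Grey squares count all genes compared in bins of 0.1 by 0.1, orange points are the 9 copper genes, and dotted lines mark 2-fold. *CTR1* and *CRS5* lie at opposite ends of the copper genes on the left, and *ATX1* lies apart from the other 8 on the right.

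Other copper-handling genes were set beside the 9 in 5 lists with 24 genes, of which 23 were measured. Among 4 further genes known as Mac1 targets, the copper and iron reductase gene *FRE1* was at 10.37 without and 12.11 with H2O2 in wild type, against 11.15 without and 12.01 with it in sod1Δ. *FRE7*, encoding a related reductase, was at 3.97 without and 7.43 with H2O2 in wild type, against 2.94 without and 7.02 with it in sod1Δ. Both were therefore higher with H2O2 in both strains, by 1.74 and 3.46 in wild type. In sod1Δ the values were 0.86 and 4.07, the first being short of 2-fold. *FRE7* was dim untreated, 0.63 above the floor at its lowest, so its large responses start near the floor. Its strain difference was -1.03 untreated, past 2-fold, and -0.41 with H2O2. *IRC7*, encoding a cysteine-sulfur lyase, was lower, with responses of -1.74 and -2.36, and *REE1* differed by -0.54 and -0.40. The 4 genes went in opposite directions, as 2 were up and 2 down in each strain, and *CTR1* lay on the side of the latter. Their median response was 0.60 in wild type and 0.23 in sod1Δ. A single direction for the targets of Mac1 was not seen.

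The chaperone *ATX1* hands copper to a path in which Ccc2 loads the oxidase Fet3, which takes up iron with the permease Ftr1. In the list of copper delivery and copper proteins, 1 of 6 genes was higher past 2-fold in untreated sod1Δ and 0 lower, beside 3.71% and 3.18% of all genes. The median of the list was 0.50 without and 0.22 with H2O2, beside -0.07 and -0.05 over all genes. The gene past 2-fold was *CCC2*, at 10.48 in wild type and 11.57 in sod1Δ, a difference of 1.08. Differences short of 2-fold were 0.71 for the vacuolar oxidase gene *FET5*, 0.57 for *FTR1* and 0.44 for *FET3*. With H2O2 the strain differences were 0.45 for *CCC2*, 0.49 for *FET5*, 0.20 for *FTR1* and 0.14 for *FET3*, each smaller than its untreated value. *ATX1*, *CCC2*, *FET3*, *FTR1* and *FET5* are also known as targets of the iron-responsive factors Aft1 and Aft2. *CCS1*, encoding the chaperone that loads Sod1 itself, differed by -0.04 and -0.21 between the strains, so the strain difference of *ATX1* was not shared by the chaperone of the missing enzyme. With H2O2 *CCS1* was higher by 1.37 in wild type and 1.20 in sod1Δ, the single gene of the 6 past 2-fold in each response. Over all genes 17.1% were higher and 16.1% lower in wild type, and 14.6% and 15.8% in sod1Δ. A count of 1 in 6 is thus near the share of all genes. The list medians were 0.35 and 0.22, beside -0.03 in each strain over all genes.

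Several mitochondrial copper factors differed more with H2O2 than *COX17*. With H2O2 3 of 8 were higher in wild type and 1 lower, and 3 higher and 0 lower in sod1Δ. Over all genes the shares were 17.1% and 16.1% in wild type and 14.6% and 15.8% in sod1Δ. The list medians were 0.54 and 0.58, beside -0.03 in each strain over all genes. *PIC2*, encoding a carrier that brings copper and phosphate into mitochondria, was at 8.43 without and 11.93 with H2O2 in wild type, against 9.80 without and 12.05 with it in sod1Δ. *COX19*, encoding a small assembly factor of cytochrome c oxidase, was higher by 2.42 and 1.80 with H2O2. *SCO1*, whose product receives copper from Cox17, was higher by 1.51 and 1.48. *COX11*, whose product also receives copper from Cox17, was at 6.36 without and 5.03 with H2O2 in wild type, against 5.45 without and 5.05 with it in sod1Δ, a response of -1.33 in wild type and -0.41 in sod1Δ. *PIC2* was higher in untreated sod1Δ by 1.37 and *COX19* was lower in treated sod1Δ, with a difference of -1.02. The genes of this list thus did not move as a unit with *COX17*, whose responses were -0.38 and 0.05.

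Among the 4 other genes of copper transport and tolerance, *PCA1*, encoding a P-type ATPase linked to cadmium and copper tolerance, was at 6.56 without and 8.10 with H2O2 in wild type, against 8.61 without and 9.07 with it in sod1Δ. It was higher by 2.05 in untreated sod1Δ and by 1.54 with H2O2 in wild type, and the remaining differences, 0.45 for the sod1Δ response and 0.96 between the treated strains, were short of 2-fold. *FRE6*, encoding a vacuolar reductase that works with Ctr2, had responses of 0.62 and 0.10. *FET4*, the gene of a low-affinity iron and copper transporter, had responses of 0.44 and -0.35, and *SLF1*, linked to copper tolerance, stayed within 0.05 over all arrays. Over all 23 of these genes, *SOD1* included, 7 were higher and 2 lower with H2O2 in wild type, and 5 higher and 1 lower in sod1Δ. The shares of all genes were 17.1% and 16.1% in wild type, and 14.6% and 15.8% in sod1Δ. The medians of the 23 genes were 0.40 and 0.18, beside -0.03 in each strain over all genes.

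**Figure D3:**
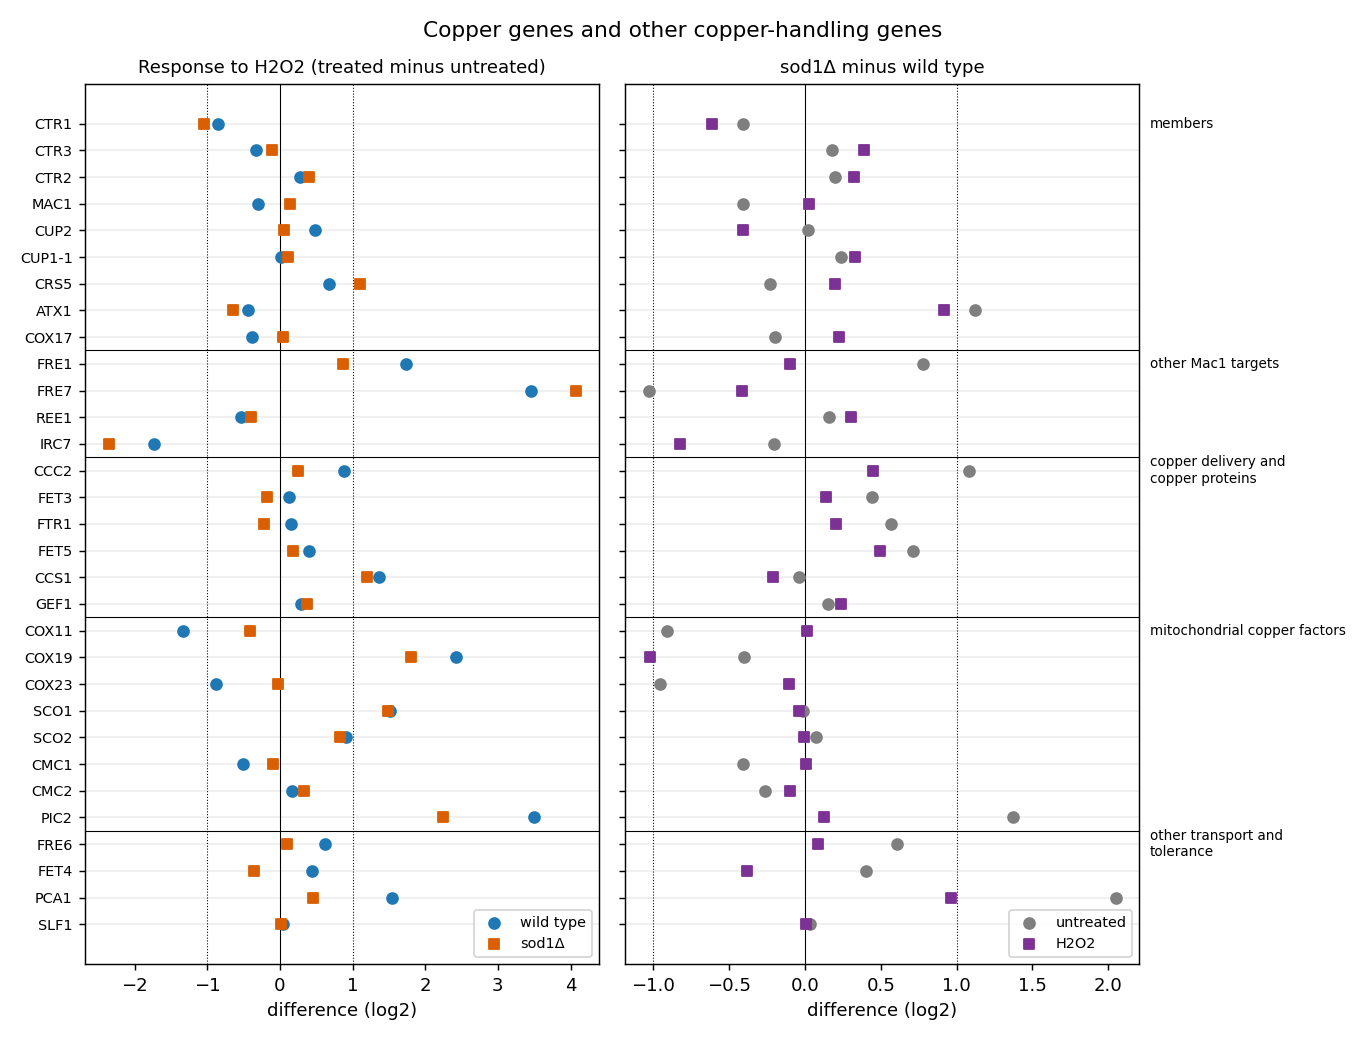
Log2 differences of the 9 copper genes and of the other copper-handling genes measured, grouped by list (*SOD1*, the deleted gene, is left off). Left, response to H2O2 in wild type (circles) and sod1Δ (squares). Right, sod1Δ minus wild type untreated (circles) and with H2O2 (squares). Dotted lines mark 2-fold, and the 2 panels have different scales. *FRE7*, *PIC2*, *COX19*, *SCO1* and *CCS1*, all higher, and *IRC7*, lower, differed more with H2O2 in both strains than any of the 9 copper genes. *PCA1* lay furthest to the right between the untreated strains.

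The genes beside *CUP1-1* were also read. *CUP1-1* and *CUP1-2* lie in a tandem repeat whose number of copies is known to vary between yeast strains, and *YHR054C*, a gene of uncertain function, lies between them in the reference annotation. *YHR054C*, named here after its values had been seen, was at 8.94 without and 9.24 with H2O2 in wild type, against 10.45 without and 10.80 with it in sod1Δ. Both sod1Δ arrays lay above both wild type arrays by more than 2-fold, with differences of 1.51 untreated and 1.55 with H2O2, number 81 of 5344 genes and number 65 of 5341 from the highest. Its responses to H2O2 were 0.30 in wild type and 0.35 in sod1Δ. *CUP1-1* showed strain differences of 0.24 and 0.33 in the same direction. Of the genes flanking the repeat, *CPR2*, encoding a cyclophilin, differed by 0.34 and 0.33 between the strains, and *CIC1*, a gene of ribosome assembly, by -0.53 and 0.24. The *YHR054C* probe set is also of the type shared between transcripts, and *RSC30*, the neighbour beyond *CUP1-2*, had no probe set of its own here. The number of repeats in these strains was not measured.

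**Figure D4:**
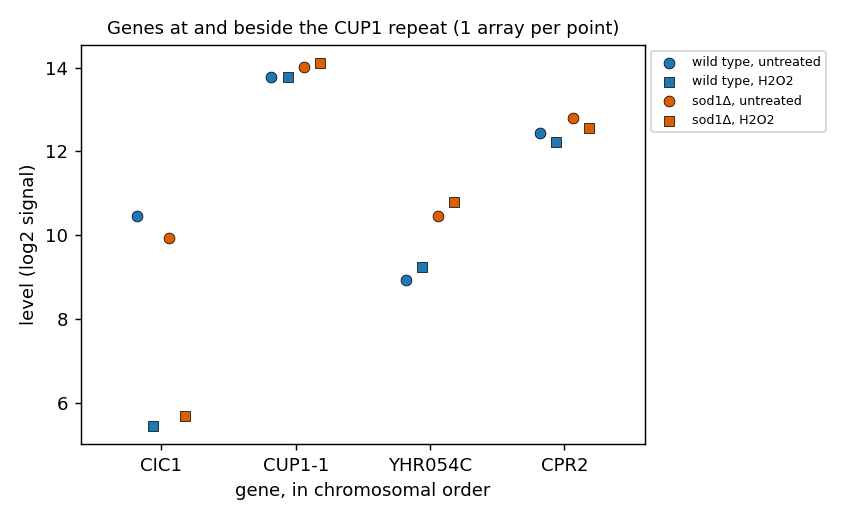
Level (log2 signal) of *CUP1-1*, *YHR054C* and the flanking genes *CIC1* and *CPR2*, in chromosomal order, with 1 array per point; colours mark the strain and shapes the treatment. Levels are to be compared within a gene. For *YHR054C* both sod1Δ points lie more than 1.5 above the wild type point of the same treatment, while the *CUP1-1* points lie within 0.35 of each other.

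The neighbours of *ATX1* did not share its strain difference. *DSL1* and *LTO1*, the adjacent genes, differed between the strains by 0.16 and 0.07 untreated and by -0.11 and -0.22 with H2O2. Beside *CRS5*, *DFG16* had responses of 0.62 and 0.57 and *HMS1* of 2.35 and 1.62, so both neighbours had the direction of *CRS5*. Beside *CTR1*, *YLH47* was lower with H2O2, by responses of -1.55 and -1.38, and *AXL1* had responses of 0.14 and 0.52.

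For the 3 copper genes whose levels ranged over at least 1, the genes with the nearest pattern over the 4 arrays were found by the root mean square distance between gene-centred log2 levels. *CTR1* was nearest to *MAP1*, encoding a methionine aminopeptidase (distance 0.041), *GCS1*, encoding a GTPase-activating protein (0.053), and *RPS8A*, encoding a ribosomal protein (0.055). *CRS5* was nearest to *BUD5*, a bud site selection gene (0.041), *SYP1*, an endocytosis gene (0.042), and *ASI1*, a gene of the inner nuclear membrane (0.042). *ATX1* had no neighbour as close: *TPO2*, encoding a polyamine transporter, lay at 0.12 and *PET18* and *MMS22* at 0.13. No other copper gene was among these 9 nearest genes, and a distance over 4 arrays says nothing of shared control.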

How the data were processed

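For each of the 4 samples 50 ng of total RNA was amplified and biotin-labelled with kits for whole transcriptomes, per the labels' protocols. The log2 values deposited by the authors are signals per probe set from GCRMA, per the submitters' processing notes, which removes a background modelled on the bases of each probe and then scales the arrays together; its version is not given in the sources used here. This normalization hides any change in total RNA per cell. With 32 added to the linear signal, which damps differences of dim genes most, fewer genes passed 2-fold in every comparison.

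Of 10928 probe sets, 5498 named 1 *S. cerevisiae* gene in the platform annotation and were updated by gene identifier to RefSeq symbols, which also separates *CTR1* from *HNM1*, a gene with that older alias. Probe sets of a gene were averaged (5449 genes). A gene was counted in a comparison if at least 1 of its arrays exceeded the floor. Differences of log2 levels were computed in 4 pairwise comparisons and between the responses, in Python 3.11.15 with pandas 2.3.3. The calls were checked on simulated tables with little noise and planted differences well past the threshold. That checks the code and not how reliable the calls are. With 1 array per group there is no test and no p-value. An additive fit of strain and treatment, which would take both responses as equal, was not run. Arrays give no counting depth.

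The 9 genes, the 5 context lists and the rule for named genes (all 9, context genes past 2-fold or at the extremes of a list, and the nearest patterns) were chosen with earlier results of these data known. Further context genes and neighbouring genes were named after their values were seen. Promoter and protein sequences were not used here. The alternatives began with quantile normalization, applied on top of the deposited values of the *S. cerevisiae* probe sets. Others were array-median centring, the brightest probe set, 32 added to the linear signal, no floor and a floor at the 99th percentile. A 1.5-fold threshold was added after seeing the data.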

Additional observations from a re-analysis of the deposited data

Results flagged for a closer look

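Some copper genes moved in opposite directions in the strains or conditions; with 1 array per group none of these differences was tested. *MAC1* had a response to H2O2 of -0.30 in wild type and 0.13 in sod1Δ, and *COX17* of -0.38 and 0.05. The responses, sod1Δ minus wild type, thus differed by 0.44 for *MAC1* and 0.42 for *COX17*. The same arrays give the strain differences, which also changed sign between untreated and treated cells: from -0.41 to 0.03 for *MAC1* and from -0.20 to 0.23 for *COX17*. The strain difference of *CRS5* went from -0.23 to 0.20, a change of 0.43, and that of *CUP2* from 0.02 to -0.41, a change of -0.43. As deposited, these changes were slightly smaller in size than the SD between probe sets of the same gene for this quantity, 0.45. They were larger than the median absolute difference between the 2 probe sets, 0.16, and 3 of 42 pairs lay 2-fold or more apart. After quantile normalization the value of the dim gene *MAC1* was 0.73, above that SD. The hybridization controls had a median of 0.87 for the same quantity, and their part was not tested. Opposite strain differences in the 2 conditions occurred in 4 of the 9 copper genes, beside 1405 of 5320 genes compared in both.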

How the results depend on the processing

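The number of copper genes past 2-fold in the sod1Δ response dropped from 2 to 1 after quantile normalization and to 1 with 32 added to the linear signal, since *CTR1* then lay at -0.99 and -0.97. Between the treated strains it rose from 0 to 1 after quantile normalization, where *CTR3* stood at 1.05. With a threshold of 1.5-fold, chosen after seeing the data, the count was 2 in the wild type response, *CRS5* up and *CTR1* down, where 25.9% of all genes compared were higher and 26.2% lower. It was 2 between the treated strains, *ATX1* up and *CTR1* down, where 9.02% were higher and 15.1% lower. The other counts of the 9 genes stayed within 1.5 times of those reported, and each median of the 9 genes moved by less than the spread between probe sets. Under quantile normalization *CTR3* changed sign in the sod1Δ response; no other copper gene changed sign in any comparison under the other alternatives. The difference of the responses became 0.74 for *CTR3* and 0.73 for *MAC1* after quantile normalization, against 0.21 and 0.44 as deposited. These 2 of the 9 genes then passed 1.5-fold upwards. The share of all genes past 1.5-fold was counted only as deposited, so this count has no matching background. Counts over all genes depended more on the scaling. With 32 added, higher and lower genes numbered 147 and 71 between the untreated strains (198 and 170 as deposited), 115 and 155 between the treated strains (164 and 338), and 64 and 97 for the difference of the responses (143 and 216). Quantile normalization gave 229 and 129, 230 and 215, and 194 and 183 in the same order. The brightest probe set, no floor and the higher floor left the 9 genes as they were, since each had 1 probe set above both floors. No paired analysis was possible because every group had 1 array. Precision is limited by the single array per group and, for *CTR3* and *MAC1*, by dim signals.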
